A study of Homo sapiens with 4 samples.

Results

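A set of 46 genes, MYC and 45 genes that build ribosomes, was examined in A549 cells after FCN3 expression. The members are proteins of the small nucleolar RNA-protein particles (snoRNPs), factors that assemble the small and the large ribosomal subunit, RNA polymerase I with its transcription factors, and MYC itself. They were taken from a list of gene symbols drawn up with earlier results of these data known, and 45 of the 46 symbols were found among the 25192 genes of each table. The remaining member, UTP4, was listed under its older symbol CIRH1A and is described apart. All 45 passed the filter on low counts, with expected counts of at least 497 in every library.

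A549 is an established human lung adenocarcinoma cell line. RNA was taken 48 h after infection from 2 samples that received the control empty virus (EV), a retrovirus carrying only GFP, and from 2 samples that received the same vector with the full-length FCN3 coding sequence tagged with V5. All cells were grown in the same serum-containing medium. The labels name no sort for transduced cells, so each library averages over all cells of its sample, and fewer expressing cells cannot be told apart from less RNA per cell. Nothing in the labels says whether replicates 1 and 2 were separate transductions, so p-values measure the spread between these samples, which may be technical. The edgeR test takes most of its estimate of that spread from all genes together, not from each gene alone.

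Ribosome production starts in the nucleolus, where RNA polymerase I copies the ribosomal DNA into a long precursor RNA. snoRNPs modify that precursor, the small subunit processome and a succession of large subunit factors fold and cut it, and helicases and GTPases release the maturing particles. MYC is known for raising the expression of many of these genes in growing cells, and it binds with its partner MAX to the E-box, a short DNA motif. Nucleolar size and ribosome production are therefore often read as marks of growth in tumor cells.

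The libraries held between 16353554 and 35733735 expected counts, with more in replicate 1 than in replicate 2 of either group. FCN3 had an expected count of 1 and 0 in the EV libraries and of 722388 and 448352 in the FCN3 libraries. Markers of the line were checked. The keratins KRT8, KRT18 and KRT7 lay between 1131 and 4459 CPM (TMM-scaled counts relative to library size) in every library, whereas EPCAM lay between 1.00 and 3.11 CPM. These genes belong to a list of 8 epithelial and A549 markers, which did not all stay level. The log2 fold changes of the 8 ran from -1.13 to 0.31, and 3 exceeded 0.5 in size. At an FDR of 0.01 in the paired edgeR test, 3 of the 8 were higher and 3 lower with the FCN3 virus. Among all genes tested, 19.1% were higher and 17.1% lower. Without pairing by replicate number, edgeR found 0 of the 8 past that FDR. Of 9 markers of blood, endothelium and fibroblasts only CD68 and COL1A1 passed the filter, and the summed TPM of the 9 was 37.4 and 43.9 in EV cells against 64.8 and 58.0 with the FCN3 virus. PTPRC, CD3E, PECAM1, VWF and COL1A2 were at or below 0.02 TPM in every library. CD68, a lysosomal protein of macrophages and other cells, was higher with the FCN3 virus (log2 fold change 0.79), and its part in the results below was not tested.

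The canonical E-box, spelled CACGTG and read the same on both strands, was searched in RefSeq promoters of build GRCh38.p14, which run from 250 bases before to 50 bases after the start of a gene. Promoters were found for 37 of the 45 members, and 16 of these members had the motif in at least 1 of their promoters. It was present in 34.0% of the 47 promoters of members, in 9.1% of promoters of genes tested here and in 7.26% of all 35116 promoters of the table. The share was 33.3% for other small subunit factors and 34.0% for other large subunit factors, and also 33.3% for the 6 promoters of MCM helicase genes, against 5.13% for promoters of cytosolic ribosomal protein genes. A match describes letters and not binding. The following promoters are shown because UTP18, UTP20 and MRTO4 carry the motif and were down-regulated, NOP10 carries it and did not pass the test, and DDX10 lacks it and was the most strongly up-regulated member after MYC. The E-box is in capitals.
UTP18 (chr17:51260296-51260595, plus strand): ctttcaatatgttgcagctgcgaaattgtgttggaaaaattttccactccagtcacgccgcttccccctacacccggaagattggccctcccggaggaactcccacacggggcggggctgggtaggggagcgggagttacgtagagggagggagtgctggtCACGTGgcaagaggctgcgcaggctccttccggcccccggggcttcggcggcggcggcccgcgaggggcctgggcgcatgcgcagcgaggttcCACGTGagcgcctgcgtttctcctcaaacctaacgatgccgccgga
UTP20 (chr12:101279855-101280154, plus strand): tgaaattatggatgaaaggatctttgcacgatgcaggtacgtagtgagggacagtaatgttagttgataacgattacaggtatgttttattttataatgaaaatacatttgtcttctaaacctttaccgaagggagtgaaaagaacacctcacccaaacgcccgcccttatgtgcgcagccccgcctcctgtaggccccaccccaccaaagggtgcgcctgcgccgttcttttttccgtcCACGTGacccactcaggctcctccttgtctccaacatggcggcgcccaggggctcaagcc
MRTO4 (chr1:19251555-19251854, plus strand): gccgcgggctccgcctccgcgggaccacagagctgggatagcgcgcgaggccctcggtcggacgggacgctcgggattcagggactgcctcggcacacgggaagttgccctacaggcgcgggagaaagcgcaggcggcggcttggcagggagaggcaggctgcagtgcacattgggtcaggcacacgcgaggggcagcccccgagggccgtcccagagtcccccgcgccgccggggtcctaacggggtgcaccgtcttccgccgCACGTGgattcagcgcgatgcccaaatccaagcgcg
NOP10 (chr15:34343087-34343386, minus strand): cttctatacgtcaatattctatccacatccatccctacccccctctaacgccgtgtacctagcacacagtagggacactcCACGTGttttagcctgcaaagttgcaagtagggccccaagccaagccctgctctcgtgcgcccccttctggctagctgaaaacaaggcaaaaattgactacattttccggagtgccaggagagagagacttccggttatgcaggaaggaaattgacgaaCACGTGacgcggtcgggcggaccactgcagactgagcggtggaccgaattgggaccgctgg
DDX10 (chr11:108664819-108665118, plus strand): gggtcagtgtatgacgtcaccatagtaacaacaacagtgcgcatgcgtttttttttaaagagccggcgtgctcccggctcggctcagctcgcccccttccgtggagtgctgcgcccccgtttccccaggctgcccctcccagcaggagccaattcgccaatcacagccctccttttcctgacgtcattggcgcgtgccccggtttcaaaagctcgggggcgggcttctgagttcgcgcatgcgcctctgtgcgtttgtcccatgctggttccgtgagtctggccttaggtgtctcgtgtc
With the first transcribed base counted as 1, the motif began at positions -89 and 5 in UTP18, at -10 in UTP20, at 15 in MRTO4, and at -170 and -11 in NOP10.

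FCN3-virus-transduced cells had more MYC transcript, less UBTF transcript, and mostly small differences in the other nucleolar transcripts. EV and FCN3 libraries were compared within replicate numbers by edgeR's quasi-likelihood test with Benjamini-Hochberg adjustment over all tested genes and an FDR threshold of 0.01, and members past it are called up- or down-regulated. Standard errors (SE) are on the log2 scale. Of the 45 members, 3 were up-regulated, 12 were down-regulated and 30 did not pass. These are 33.3% of the members, beside 36.2% of all 14099 genes tested (19.1% higher and 17.1% lower), so calls were about as frequent among the members as among all genes. The median log2 fold change was -0.07 for the members and 0.01 for all tested genes. The median size of a change was 0.13 on the log2 scale for the members and 0.22 for all genes, and only UBTF exceeded 0.5, a size exceeded by 20.9% of all genes.

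The count of calls rested on the pairing. Without the replicate block, edgeR called 0 of the 45 members at the same threshold, where it called 0.965% of all genes (0.738% higher and 0.227% lower), and 11 members had an unadjusted p under 0.05, as did 25.1% of all genes. DESeq2 called 10 members with the block (16.0% of all genes) and 2, MYC and UBTF, without it (7.64% of all genes). Regardless of any model, the FCN3 values were both above the EV values for 5 members and below them for 20, where 28.0% and 26.5% of all tested genes did so.

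**Figure D1:**
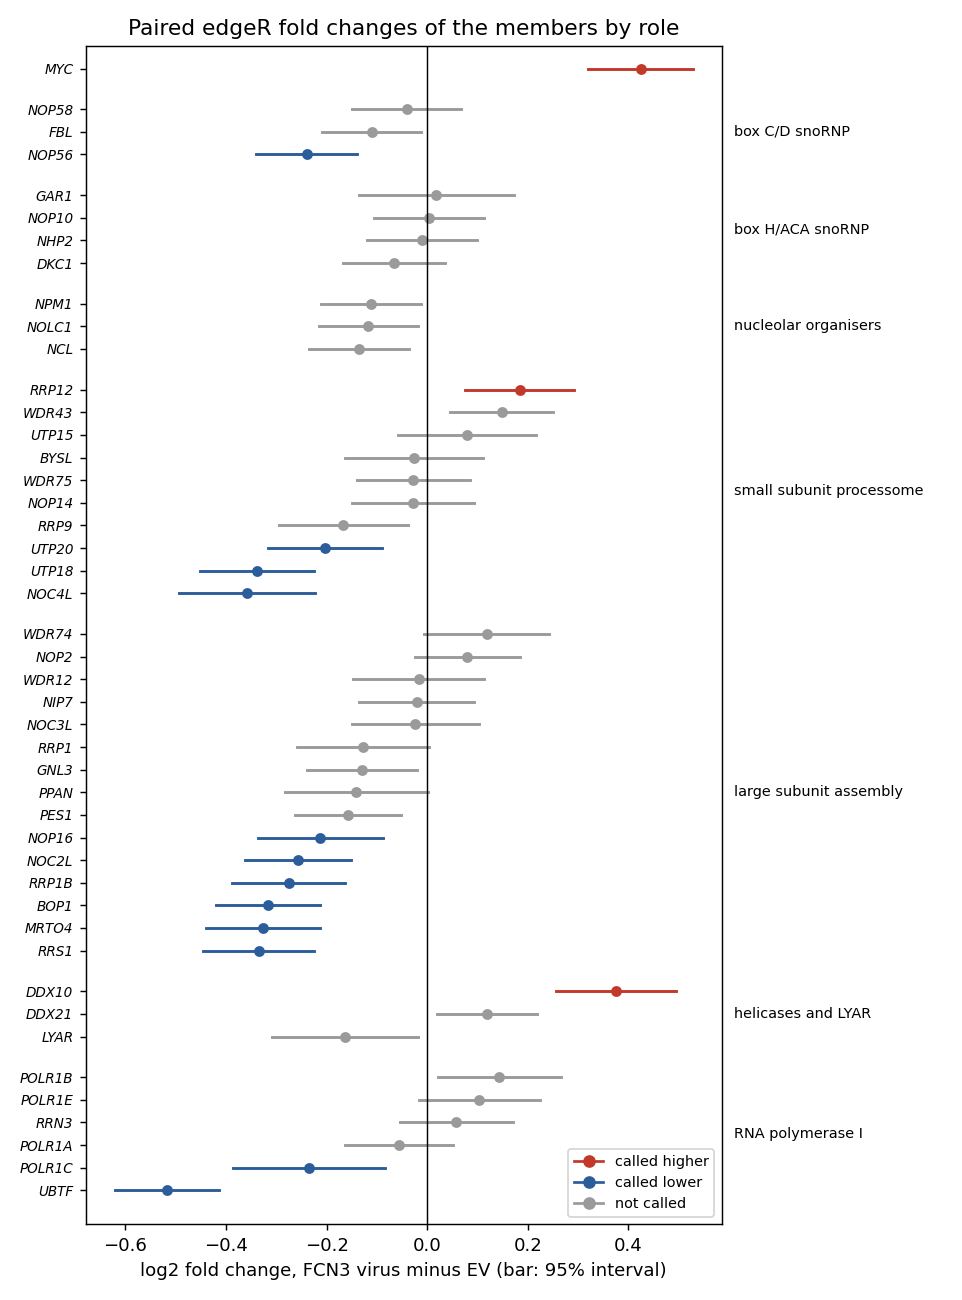
Log2 fold change (FCN3 virus minus EV) of the 45 members on the x axis, grouped by role, from the paired edgeR fit, with bars for the 95% interval, red for up-regulated, blue for down-regulated and grey for members that did not pass. MYC at 0.42 and UBTF at -0.52 mark the ends, and the 4 box H/ACA proteins lie between -0.07 and 0.02.

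MYC, the transcription factor, is a gene of chromosome 8 (GRCh37 positions 128747680 to 128755197). Its level was 184.5 and 202.5 CPM in EV replicates 1 and 2 and at 258.9 and 259.6 CPM in FCN3 replicates 1 and 2. Both FCN3 libraries were above both EV libraries and nearly equal to each other. MYC rose by 0.42 on the log2 scale (SE 0.05, adjusted p = 9.74e-10 in the paired edgeR test, 0.0474 without the replicate block), which is an increase of 34.2%. On the length-corrected scale MYC stood at 153.9 and 167.5 TPM in EV cells and at 198.6 and 202.4 TPM with the FCN3 virus.

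The partners and antagonists of MYC were measured alongside. Of 11 tested genes of the MYC network 5 were up-regulated and 1 was down-regulated in the paired edgeR test. Of all genes, 19.1% were called higher and 17.1% lower in that test. DESeq2 with the block called only 1 of the 11 higher and 1 lower. MXD1, which pairs with MAX and represses E-box genes, rose from 3.68 and 4.42 CPM to 21.9 and 22.8 CPM (log2 fold change 2.49, SE 0.12). It was the 1 gene of this network that edgeR also called without the replicate block (adjusted p = 0.00305). MAX itself rose by 0.36 and MXD4, another repressor, by 0.42 on the log2 scale. MXD3, a repressor linked to dividing cells, had 11.5 and 14.3 CPM in EV cells and 4.92 and 6.38 CPM with the FCN3 virus, a log2 fold change of -1.19. MNT (0.33) and MGA (0.23) were the other up-regulated members of the network.

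**Figure D2:**
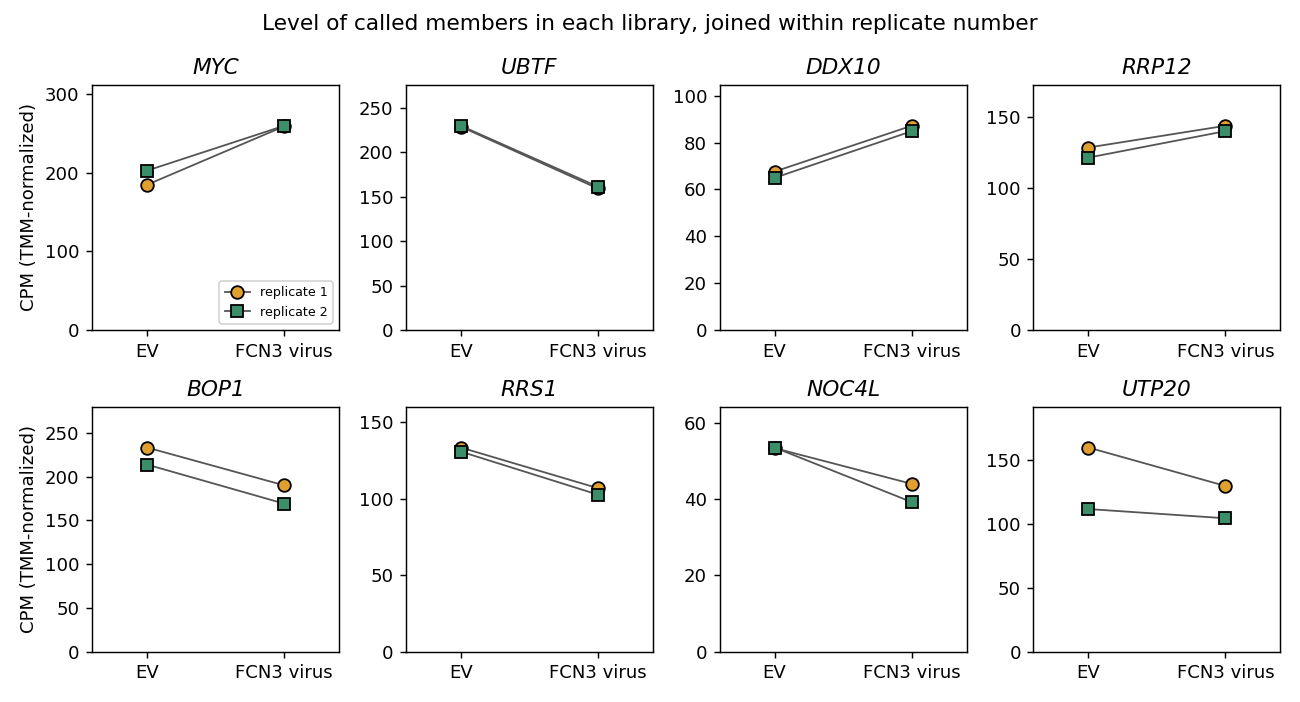
CPM (TMM-normalized, y axes from 0) of 8 called members in EV and FCN3 libraries, with lines joining libraries of the same replicate number (circles replicate 1, squares replicate 2). MYC, DDX10 and RRP12 were higher in both FCN3 libraries, UBTF, BOP1, RRS1 and NOC4L were lower in both, and in UTP20 the groups overlapped.

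RNA polymerase I and its factors were represented by 6 members, of which 2 were down-regulated and 4 did not pass, where 17.1% of all genes were called lower. DESeq2 with the block called 1 of the 6 lower, and edgeR without the block called 0. UBTF, the factor that opens ribosomal DNA and recruits the polymerase, had the largest change of all members. The gene, on chromosome 17 (GRCh37 positions 42282401 to 42298994), is read from the minus strand. Its level was 229.0 and 230.0 CPM in EV cells and 159.3 and 161.3 CPM with the FCN3 virus. The groups were far apart compared with the spread within them, and UBTF fell by 30.1% (log2 fold change -0.52, SE 0.05, adjusted p = 2.63e-12 in the paired edgeR test, 0.0216 without the block). POLR1C, a subunit that polymerases I and III share, had 35.8 and 32.3 CPM in EV cells against 30.3 and 27.6 CPM (log2 fold change -0.23, adjusted p = 0.0088 in edgeR). This call was lost in DESeq2 with the block (adjusted p = 0.205). It was also lost in edgeR without the block (0.277), without the filter (0.0202) and with offsets from effective lengths (0.0113).

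The catalytic subunits were not called. POLR1A, the largest subunit, had a log2 fold change of -0.06 (95% interval -0.16 to 0.05) and POLR1B, the next in size, one of 0.14 (0.02 to 0.27) with an adjusted p of 0.0478 in edgeR. POLR1B was at 87.65 and 67.92 CPM in EV cells and at 89.68 and 81.65 CPM in FCN3 cells, so its groups overlapped. POLR1E, an associated subunit, was at 0.10 (-0.02 to 0.22). RRN3, the initiation factor that joins the polymerase to the promoter complex, was at 0.06 (-0.05 to 0.17), and its expected counts were not whole. Among 9 polymerase I genes that are not members, POLR1D (0.29) and TAF1D (0.42) were up-regulated and POLR1G (-0.40) and TAF1C (-0.26) were down-regulated. These calls are from the paired edgeR test, where 19.1% of all genes were called higher and 17.1% lower. DESeq2 with the block called 0 of the 9 higher and 1 lower, and edgeR without the block called 0. POLR1D is the partner of POLR1C in the polymerase, and it stood at 63.3 and 61.0 CPM in EV cells against 75.6 and 76.0 CPM with the FCN3 virus.

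Of the box C/D snoRNP proteins, which direct ribose methylation, 1 of 3 was down-regulated, where 17.1% of all genes were. NOP56 had 474.8 and 468.5 CPM in EV cells and 380.4 and 420.0 CPM in FCN3 cells (a change of -0.24 on the log2 scale, SE 0.05, adjusted p = 7.6e-05 in the paired edgeR test). Both FCN3 values were lower, although they differed more from each other than the EV values did. Fibrillarin, the methyltransferase encoded by FBL, had a log2 fold change of -0.11 (95% interval -0.21 to -0.01) and NOP58 one of -0.04 (-0.15 to 0.07). NOP58 had 168.6 and 167.4 CPM in EV cells and 153.8 and 173.8 CPM in FCN3 cells, with values on both sides of the EV values.

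The box H/ACA proteins, which carry out pseudouridylation, gave no call among 4 members, where 36.2% of all genes were called in the paired edgeR test. In that test 0 of the 4 had an unadjusted p under 0.05, while 7399 of all 14099 genes did. DESeq2 with the block also called 0 of them, where it called 16.0% of all genes. Dyskerin (DKC1), the pseudouridine synthase, was at 306.7 and 282.0 CPM in EV cells and at 280.0 and 282.2 CPM with the FCN3 virus, so the groups overlapped. GAR1 was at 33.8 and 29.7 against 32.0 and 32.7 CPM, and NHP2 at 135.6 and 120.5 against 133.9 and 120.4 CPM. NOP10, the smallest of these proteins, was at 122.2 and 139.8 against 127.2 and 134.7 CPM, with a log2 fold change of 0.004 and a 95% interval from -0.11 to 0.11. All 4 proteins work in 1 complex, and their levels with the FCN3 virus stayed inside or close to the range of the EV libraries.

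Nucleolin (NCL), nucleophosmin (NPM1) and NOLC1, abundant proteins that organise the nucleolus, gave no call at an FDR of 0.01, and all 3 had an unadjusted p under 0.05 in the paired edgeR test, as did 7399 of the 14099 genes tested, while 0 of the 3 had one without the block. Their log2 fold changes were -0.14, -0.11 and -0.12, and DESeq2 called 0 of them. NCL was at 1771 and 1760 CPM in EV cells and at 1535 and 1682 CPM with the FCN3 virus, with no overlap. NPM1 had 2558 and 2250 against 2290 and 2152 CPM and NOLC1 493.5 and 435.7 against 439.1 and 416.6 CPM, both with overlap. Expected counts of NCL and NPM1 were not whole, so some of their reads may be shared with other genes, which was not tested.

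The small subunit processome and its associates showed calls in both directions: 1 of 10 measured members was up-regulated, 3 were down-regulated and 6 did not pass, where 19.1% and 17.1% of all genes were called. DESeq2 with the block called 0 higher and 1 lower, and edgeR without the block called 0. RRP12, an export and maturation factor, had 128.4 and 121.3 CPM in EV cells and 143.7 and 139.9 CPM in FCN3 cells (a change of 0.18 on the log2 scale, SE 0.05, adjusted p = 0.00401 in edgeR). This call was lost in DESeq2 with the block (adjusted p = 0.115), in edgeR without the block (0.234) and without the filter (0.0141), and in limma on log2(TPM + 1) (0.278). NOC4L, which accompanies NOP14 in the processome, fell from 53.4 and 53.6 CPM to 44.0 and 39.3 CPM (log2 fold change -0.36, SE 0.07, adjusted p = 1.59e-05 in the paired edgeR test). It narrowly missed the threshold in DESeq2 with the block (adjusted p = 0.0103) and was not called in edgeR without the block (0.101). NOP14 itself had a value of -0.03 (95% interval -0.15 to 0.09).

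UTP18, a component of the UTP-B complex, fell by 0.34 on the log2 scale, from 120.9 and 100.5 CPM to 93.3 and 81.7 CPM. UTP20, a very large scaffold protein, was called lower (log2 fold change -0.20, adjusted p = 0.00242 in edgeR), but its groups overlapped, at 159.7 and 111.6 CPM in EV cells and 129.6 and 104.4 CPM with the FCN3 virus. Both pairs were negative (-0.30 and -0.10). The call was lost in DESeq2 with the block (adjusted p = 0.0753) and in edgeR without the filter (0.0191). Without EV replicate 1 and without the block, a fit in which the difference between replicate numbers enters the comparison, the log2 fold change was 0.079. WDR43 and UTP15 were at 0.15 and 0.08 without passing, and the former had both FCN3 libraries above both EV libraries. WDR75, BYSL and RRP9 were at -0.03, -0.03 and -0.17 and did not pass either. UTP4, under its older symbol, was at -0.12 (95% interval -0.23 to -0.01, adjusted p = 0.0568 in edgeR) and did not pass.

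Of the large subunit factors, the largest group, 6 of 15 were down-regulated (17.1% of all genes were), with no call upward in edgeR or DESeq2. DESeq2 with the block called 5 of the 15 lower, and edgeR without the block called 0. The median log2 fold change of these 15 genes was -0.14, and 10 of them had both FCN3 libraries below both EV libraries (26.5% of all genes did). BOP1, a member of the PeBoW complex that processes the large subunit RNA, was at 233.3 and 213.8 CPM in EV cells and at 190.0 and 169.1 CPM in FCN3 cells (a change of -0.32 on the log2 scale, SE 0.05, adjusted p = 9.31e-07 in edgeR). Its partners in that complex did not pass. PES1 was at -0.16 (95% interval -0.26 to -0.05, adjusted p = 0.0116 in edgeR) and WDR12 at -0.02 (-0.15 to 0.11).

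RRS1, which recruits the 5S particle, fell from 133.4 and 130.8 CPM to 106.8 and 102.6 CPM (log2 fold change -0.33, adjusted p = 1.15e-06 in the paired edgeR test, 0.0684 without the block). MRTO4, a factor that holds the place of a stalk protein, changed by -0.33, from 127.0 and 109.2 to 104.2 and 84.5 CPM. The other down-regulated members were RRP1B (-0.28), NOC2L (-0.26) and NOP16 (-0.21). Of these, NOP16 lost its call in DESeq2 with the block (adjusted p = 0.113) and in edgeR without the filter (0.0137). The close relative of RRP1B, RRP1, was at -0.13 with an adjusted p of 0.105 in edgeR. NOC3L, which pairs with NOC2L in yeast, was at -0.02, as was NIP7.

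Positive values in this group came from WDR74 (0.12, both FCN3 libraries above both EV libraries) and NOP2, an RNA methyltransferase (0.08), neither of which passed. WDR74 had 64.1 and 59.2 CPM in EV cells and 68.1 and 65.9 CPM in FCN3 cells. GNL3, also known as nucleostemin, was at -0.13 (adjusted p = 0.0464 in edgeR). PPAN was at -0.14, a value that is uncertain because its locus also holds a read-through entry with P2RY11 and RSEM can divide reads between them.

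DDX10, an RNA helicase of the small subunit pathway, was the up-regulated member with the largest change after MYC. The gene is on chromosome 11 (GRCh37 positions 108535785 to 108811726). Its level rose from 67.6 and 64.9 CPM to 87.2 and 84.9 CPM, or by 0.38 on the log2 scale (SE 0.06, adjusted p = 5.38e-07 in the paired edgeR test, 0.0596 without the block). DDX21, a helicase that acts with polymerases I and II, was at 541.8 and 467.6 CPM in EV cells and at 560.4 and 533.6 CPM (log2 fold change 0.12, adjusted p = 0.0427 in edgeR). LYAR, a nucleolar zinc finger protein, was at -0.16 (adjusted p = 0.0601 in edgeR). LYAR had 39.6 and 36.0 CPM in EV cells and 34.8 and 32.7 CPM in FCN3 cells, with no overlap.

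**Figure D3:**
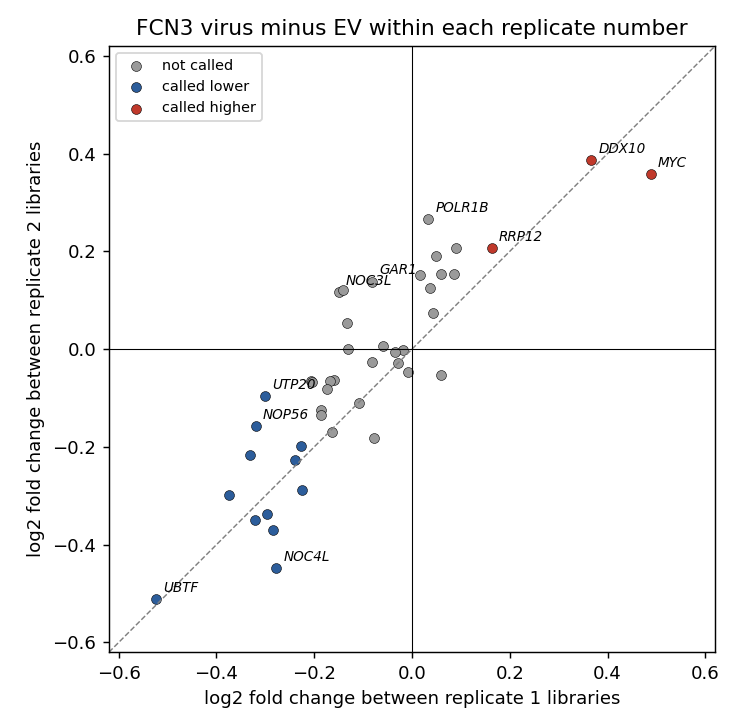
Log2 fold change (FCN3 virus minus EV) of each member in the replicate 1 pair (x axis) and in the replicate 2 pair (y axis), with the dashed line where both are equal. All 15 called members (red and blue) lie on the same side of 0 in both pairs, and 7 grey members lie on opposite sides.

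The sign was the same in both pairs for 38 of the 45 members (84.4%), beside 80.2% of all tested genes, and for all 15 called members. UBTF was even, at -0.52 in the first pair and -0.51 in the second, and DDX10 gave 0.37 and 0.39. MYC gave 0.49 and 0.36. The median over the members was -0.13 in the first pair and -0.05 in the second, while the median of all genes was 0.02 and 0.00. UTP20 (-0.30 and -0.10) and NOP56 (-0.32 and -0.16) changed more in the first pair, and NOC4L (-0.28 and -0.45) changed more in the second.

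The replicate numbers also differed among themselves. With the condition in the model, 6 members separated replicate 1 from replicate 2 past the same threshold, where 22.2% of all tested genes did. Of the 14099 tested genes, 1482 passed as higher in replicate 1 and 1650 as higher in replicate 2. All 6 members were higher in replicate 1. They were UTP20 (replicate 2 minus replicate 1 on the log2 scale -0.42), MRTO4 (-0.26), POLR1B (-0.25), UTP18 (-0.23), POLR1E (-0.22) and POLR1A (-0.20). UTP20, MRTO4 and UTP18 thus passed the paired edgeR test both for the condition and for the replicate number. In edgeR without the block their adjusted p for the condition was 0.556, 0.22 and 0.176. MYC, UBTF and DDX10 did not pass the test of replicate 2 against replicate 1, with differences of 0.07, 0.01 and -0.05.

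Of the 30 members that were not called, 23 had a 95% interval within 0.25 of 0 on both sides in the paired edgeR fit. The same count was not made for all genes. Standard errors in this fit ran from 0.05 to 0.08 over the members, against a median of 0.08 over all genes. Without the replicate block they were larger, for POLR1A 0.11 against 0.05 and for UTP15 0.13 against 0.07. The narrow intervals thus rest on the pairing, and they do not show that these members were unchanged. The members are well expressed. In EV cells their mean level ran from 22.9 TPM (UTP15) to 3489 TPM (NPM1), with NCL (1264 TPM), FBL (753 TPM), NOP10 (654 TPM), NOP56 (439 TPM) and NHP2 (342 TPM) next in order below NPM1.

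Summed over the 45 members, the level was 10812 and 10051 CPM in EV cells and 9867 and 9730 CPM with the FCN3 virus, 6.08% less on average. NPM1 and NCL alone make up a large part of this sum. In TPM the sums were 11000 and 10264 in EV cells and 9260 and 9274 with the FCN3 virus, 12.8% less. TPM divides by all transcripts including those of FCN3, and on this scale the median log2 fold change of all tested genes was -0.07 with a pseudocount of 1.

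Other genes of the pathway, from lists that leave out the members, had their own counts of calls, and the difference from the members was not tested. Of 42 other small subunit factors 3 were up-regulated and 5 down-regulated (median log2 fold change -0.003), and of 44 other large subunit factors 4 and 6 (median 0.03). Among all tested genes 19.1% were called higher and 17.1% lower. DESeq2 with the block called 1 of the 42 higher and 2 lower, and 2 of the 44 higher and 1 lower. DHX37, a small subunit helicase, was at -0.43 and RIOK2, a kinase of the last cytoplasmic steps, at 0.44. Among the large subunit factors RSL24D1 rose by 0.48, NOP53 rose by 0.39 and GRWD1 changed by -0.46. Of 10 other snoRNP genes 2 were down-regulated, TCOF1 (-0.37), the treacle protein that works with UBTF on ribosomal DNA, and RUVBL2 (-0.19).

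The RNA exosome, which trims the ends of ribosomal RNA precursors, had 6 of 14 genes down-regulated and 1 up-regulated, with a median of -0.22, where 17.1% and 19.1% of all genes were called. EXOSC6 had 31.7 and 28.9 CPM in EV cells and 21.4 and 14.8 CPM in FCN3 cells (a change of -0.74 on the log2 scale, SE 0.09). EXOSC9 changed by -0.48 and EXOSC5 by -0.40. Without the replicate block, edgeR called 0 of the 14, and 6 had an unadjusted p under 0.05, while DESeq2 with the block called 3.

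Cytosolic ribosomal protein genes and the MCM helicase were set beside the members because the first are the protein parts of the same product and the second report on dividing cells. Of 79 ribosomal protein genes 41 were up-regulated and 1, RPS26, was down-regulated, with a median log2 fold change of 0.15, where 19.1% and 17.1% of all genes were called. Without the replicate block edgeR called 0 of the 79, and DESeq2 called 19 higher with the block and 2 without it. All 6 MCM genes were down-regulated, with a median of -0.82, and edgeR called 1 of the 6 without the block while DESeq2 called all 6 with and without it. The members' median of -0.07 lay between these values, but the difference between the lists was not tested. RPL10 (0.43), RPL36AL (0.41) and RPL12 (0.36) had the largest increases, and reads of ribosomal protein genes can be divided with processed pseudogenes.

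Members with and without the E-box had nearly equal medians, -0.07 over 16 genes and -0.07 over 21 genes. Of the 16 with the motif 3 were down-regulated and 0 up-regulated, and of the 21 without it 6 and 1. Among all tested genes 17.1% were called lower and 19.1% higher. UBTF had no match in its promoters. No promoter sequence was examined for the called members MYC, RRP12, BOP1, RRP1B and RRS1, so these counts leave them out. The RNA exosome promoters held the motif in 7.69% of cases.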

How the data were processed

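RNA-seq libraries of A549 cells, 2 with EV and 2 with the FCN3 virus, were grouped by the sample titles. Adapters were trimmed, STAR 2.6.1d aligned the reads to hg19, and RSEM estimated gene abundance. The tables deposited by the authors give RSEM's expected counts, estimates that are not normalized, beside TPM and FPKM, which are scaled for length and depth. FPKM was not used. The strand setting of the counting is not given in the sources used here, so genes that overlap others are uncertain. STAR is named in the submitters' processing notes, with FastQC and DESeq2.

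Rounded expected counts entered edgeR 4.0.16 in R 4.3.3 (TMM, filterByExpr, quasi-likelihood fit, replicate number as a block, Benjamini-Hochberg adjustment, FDR 0.01) on 14099 of 25192 genes. The standard error is the absolute log2 fold change over the square root of F. The test had about 50 degrees of freedom, most of them borrowed across genes, because 4 libraries with a block leave few to a gene. Standard errors and intervals are therefore not each gene's own replicate spread. Log2 CPM within pairs used a prior count of 2. A floor of 3 counts corresponds to 0.084 to 0.183 CPM, so that depth does not limit the members, and such floors cover counting error only. DESeq2 1.42.0 and limma 3.58.1 (log2(TPM + 1) and log2(TPM + 0.1)) were alternatives. The fits were also run on simulated counts that kept the fitted replicate differences and used the same dispersion for every gene. Because the replicate differences were built in, that run cannot show whether the block is right for these data. Figures were drawn with matplotlib 3.10.9.

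The pairing follows the replicate numbers in the titles, which are not stated to mark a shared day. Over the 8268 genes whose mean log2 CPM exceeded 4, the difference between replicates 2 and 1 in EV cells correlated with that in FCN3 cells (Pearson's r = 0.802, across genes, which are not independent replicates). With 2 pairs this check is limited.

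Members and lists were chosen with earlier results of these data known. All members are named. The highest and lowest log2 fold change of each role group are given by library, and of other lists at most the 3 largest called changes, with MAX and called polymerase I genes. Genes beyond this rule (MNT, MGA and others shown in comparison) were named after their values were seen. Positions come from GENCODE on GRCh37 and promoters from RefSeq on GRCh38.p14. UTP4 was matched to CIRH1A through RefSeq synonyms.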

Additional observations from a re-analysis of the deposited data

How the results depend on the processing

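Leaving out the replicate block gave 0 members called lower and 0 called higher against 12 and 3 in the paired fit, and MYC stayed at 0.42 with an adjusted p of 0.0474 in edgeR. DESeq2 without the block called 1 lower (UBTF) and 1 higher (MYC). Each library left out in turn was fitted without the block and gave 0 calls in either direction, with the lone library of a group assumed to vary like the others. In these fits the members' median ran from -0.13 to -0.02 (-0.13 and -0.053 in either pair alone, which allows no test) and MYC from 0.37 to 0.48 (0.36 and 0.49). UTP20 ranged from -0.45 to 0.079, and turned from -0.20 to 0.079 without EV replicate 1, the only called member that changed sign under any setting, while both pairs alone were negative (-0.30 and -0.096). With TPM on a log2 scale, limma called 21 lower for a pseudocount of either 1 or 0.1, with a median of -0.17 in both. Of all 14099 genes, limma called 3144 lower with a pseudocount of 1 and 3050 with 0.1. On these scales the median of all tested genes was -0.07 and -0.09, against 0.01 in the paired edgeR fit, and 31.4% and 31.1% of calls over all genes were higher against 52.7%. Without the block 76.5% of calls over all genes were higher. The members' median relative to all genes was -0.08 in the paired edgeR fit and -0.10 and -0.08 on the TPM scales. An FDR of 0.05 gave 17 members called lower and 6 called higher. The share of all genes at that threshold was not counted. Requiring a log2 fold change of at least 0.5 at an FDR of 0.01 left 1 lower and 0 higher. Of all genes, 15.2% passed both limits in either direction. All 15 called members kept direction and call with RLE factors, with FCN3 left out before normalization, with at least 10 counts in every library and with the legacy method, 14 with length offsets, 11 without a filter and 10 in DESeq2 with the block. Apart from the block itself, the cause of these differences was not tested.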

Other observations

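Some loci beside the members carried changes that the members' own values do not show. The read-through transcript PPAN-P2RY11 had 6.06 and 10.21 CPM in EV cells and 1.42 and 3.37 CPM in FCN3 cells (a change of -1.84 on the log2 scale and an adjusted p of 3.94e-13 by the paired edgeR test), and P2RY11 had 0.988 and 0 against 2.98 and 3.17 CPM. PPAN itself, at 42.2 and 40.2 against 36.6 and 38.4 CPM, was far more abundant than either. RSEM can divide reads between these 3 overlapping entries, so the change of each alone is uncertain. RRP7B, a pseudogene related to RRP7A, changed by -0.65, while RRP7A changed by -0.23 in the same test. NPM3, a relative of NPM1, was at 62.3 and 47.2 CPM in EV cells and at 61.4 and 46.6 CPM with the FCN3 virus, so that the replicate numbers differed more than the groups.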
